A study of Homo sapiens with 6 samples.

Results

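The hormone genes of the pancreatic islet and of related endocrine cells of the gut were followed in differentiated human embryonic stem cells. The 7 genes were chosen by name, INS, GCG, SST, PPY, GHRL, IAPP and GAST, from the 31410 gene symbols on the arrays, and each had 1 row. Cultures of H1 and HUES8, which are established human embryonic stem cell lines, had been taken through a stepwise pancreatic protocol to its final stage, stage 6, at which insulin-expressing cells are present. H1 supplied differentiations 1 and 2 and HUES8 differentiation 3. Each culture was split into a live sample, whose RNA came directly from unfixed cells by the RNAeasy procedure, and a processed sample. Cells of the processed sample went through paraformaldehyde fixation, permeabilization, antibody staining and a sort that kept every cell, and their RNA was recovered with a modified RecoverAll kit. There were thus 3 live and 3 processed samples on 6 Illumina arrays, and all of them hold the whole mixed culture and not sorted hormone cells. HUES8 is represented by 1 culture, so a difference between the lines and a difference between single cultures cannot be told apart.

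Islet hormones are made as larger precursors, cut by the prohormone convertases and stored in secretory granules. In the adult islet each hormone marks a cell type. Insulin (INS) is made by β cells together with islet amyloid polypeptide (IAPP, amylin), glucagon (GCG) by α cells, somatostatin (SST) by δ cells, pancreatic polypeptide (PPY) by PP cells and ghrelin (GHRL) by ε cells. Gastrin (GAST) is the hormone of G cells of the stomach and is also made in the fetal pancreas. Immature endocrine cells often hold several of these hormones at once, so in a mixed culture a hormone transcript does not count a mature cell type. With bulk RNA, fewer cells of a type and less transcript per cell cannot be told apart.

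The sequences just upstream of the 4 hormone genes with strong signal are shown, because their levels diverged between cultures. They are the 250 bases before the annotated RefSeq start, 5′ to 3′ on the strand of the gene (GRCh38.p14, all on the minus strand): INS at chr11:2161210-2161459, GCG at chr2:162152248-162152497, SST at chr3:187670395-187670644 and GHRL at chr3:10292948-10293197. Capitals mark matches on either strand to the TATA box letters TATAAA, the E-box letters CANNTG, the homeodomain core TAAT and the cAMP response element TGACGTCA, and no matches overlapped.
INS: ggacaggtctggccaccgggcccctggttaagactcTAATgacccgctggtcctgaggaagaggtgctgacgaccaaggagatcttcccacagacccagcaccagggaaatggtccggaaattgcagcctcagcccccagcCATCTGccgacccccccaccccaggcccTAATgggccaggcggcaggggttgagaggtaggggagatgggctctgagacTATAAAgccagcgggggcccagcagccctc
GCG: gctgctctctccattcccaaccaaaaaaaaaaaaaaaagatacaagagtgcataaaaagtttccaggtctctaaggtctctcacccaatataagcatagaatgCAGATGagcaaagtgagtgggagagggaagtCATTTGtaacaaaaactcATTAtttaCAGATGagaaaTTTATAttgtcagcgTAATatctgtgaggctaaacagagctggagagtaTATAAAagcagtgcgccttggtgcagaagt
SST: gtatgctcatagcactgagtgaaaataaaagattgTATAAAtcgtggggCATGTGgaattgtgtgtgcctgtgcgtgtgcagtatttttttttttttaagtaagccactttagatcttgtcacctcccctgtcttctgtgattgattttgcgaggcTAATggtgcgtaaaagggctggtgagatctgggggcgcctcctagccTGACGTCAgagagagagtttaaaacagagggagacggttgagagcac
GHRL: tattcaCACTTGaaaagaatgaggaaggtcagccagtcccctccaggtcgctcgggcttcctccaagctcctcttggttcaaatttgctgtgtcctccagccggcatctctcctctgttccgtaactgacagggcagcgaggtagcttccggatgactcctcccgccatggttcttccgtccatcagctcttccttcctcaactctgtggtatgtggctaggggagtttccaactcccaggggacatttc
INS and GCG each held TATAAA 30 bases before the start. Anywhere in the window and on either strand, TATAAA was found in 10.7% of the 35116 promoters of the same length in the table. Counted in that way, SST, PPY and GAST also held it, and GCG held 2 matches. TGACGTCA, present in 1.65% of promoters, was found upstream of SST alone among the 7 genes. GCG and GAST each held 3 E-box matches, IAPP held 2, INS, SST and GHRL held 1 each, and PPY held 0. E-box letters occurred in 61.8% of promoters and TAAT in 47.4%, and both are too common to set a gene apart. The GHRL window held no TAAT and no TATAAA. All 7 genes were in the table, and PPY, IAPP and GAST are not printed because their signals were weak. These matches describe letters and were not tested against the expression values.

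Signal is given as the intensity deposited by the authors, after background subtraction and normalization between arrays. Array medians lay between 22.5 and 27.4, and an intensity of 40 was taken as the lower limit for a usable signal. INS, GCG, SST and GHRL were above 40 on all 6 arrays. IAPP and GAST were above it on 3 arrays each, and PPY on 0. Levels of different genes come from different probes and are not compared with each other.

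INS was high in differentiations 1 and 3 and lower in differentiation 2. Its intensity was 4386 (live) and 4133 (processed) in differentiation 1, 2627 and 1898 in differentiation 2, and 4612 and 5069 in differentiation 3. The arrays of differentiation 2 were the lowest of the 6, and those of HUES8 lay above all 4 H1 arrays.

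GCG followed another order. It was 2030 and 1980 in differentiation 1, 3634 and 2808 in differentiation 2, and 1115 and 978 in differentiation 3, live sample first. The 3 cultures did not overlap, with differentiation 2 the highest and HUES8 the lowest.

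SST, whose product restrains the release of insulin and glucagon, was 2963 and 2602 in differentiation 1, 6974 and 5929 in differentiation 2, and 7339 and 7013 in differentiation 3. Differentiation 1 stood well below the other cultures, which were close to each other.

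GHRL was highest in differentiation 1 and lowest in HUES8. Its intensity was 1006 and 879 in differentiation 1, 680 and 639 in differentiation 2, and 419 and 456 in differentiation 3, and no arrays of different cultures overlapped.

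The remaining 3 hormones were dim. IAPP was 45.3 and 62.1 in differentiation 1, 44.5 and 15.9 in differentiation 2, and 22.7 and 26.0 in differentiation 3. The live and processed samples of differentiation 2 were thus further apart than the means of any pair of cultures on the log2 scale. GAST was 96.0 and 73.7 in differentiation 1, 4.62 and 21.3 in differentiation 2, and 36.2 and 56.7 in differentiation 3, so that only differentiation 1 was above 40 on both arrays. PPY ranged from 8.84 to 39.2, about the level of the array medians, and was not tested.

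**Figure D1:**
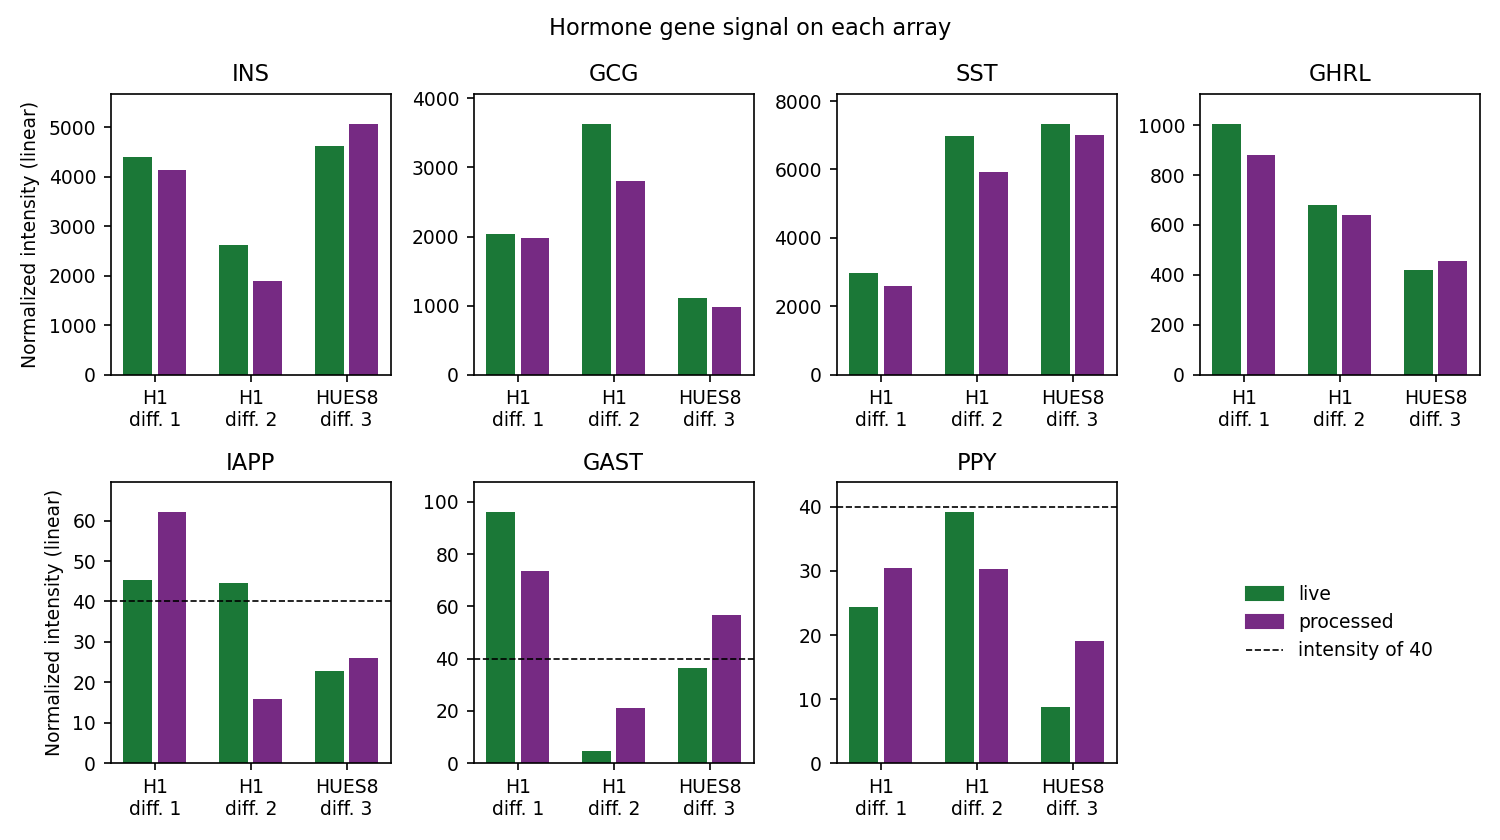
Normalized intensity (linear axis) of the 7 hormone genes on each of the 6 arrays, 1 bar per array, live in green and processed in purple, with a dashed line at 40 for the dim genes. INS was lowest in differentiation 2, GCG lowest in HUES8, SST lowest in differentiation 1, and PPY stayed below 40 on every array.

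The first comparison asked whether hormone transcripts are kept through fixation, staining and sorting. The live and processed samples of a culture gave similar signals for the 4 strong hormones, with processed values of INS at 0.72 to 1.10 times the live value, of GCG at 0.77 to 0.98 times, of SST at 0.85 to 0.96 times and of GHRL at 0.88 to 1.08 times. GHRL, the least changed on average, stood at -0.05 ± 0.16 (mean log2 difference, processed minus live, SD, n = 3 pairs). GCG and SST were lower in the processed sample of all 3 pairs, as were 19.8% of the 12653 genes tested. The dim genes varied more, with pair differences from -0.84 to 0.33 for IAPP and from -0.31 to 0.75 for GAST.

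None of the 6 hormone genes tested passed, and neither did any other gene (limma with the culture as a block, 0% of 12653 genes called, 9.65% at an unadjusted p under 0.05). The adjusted p ran from 0.635 for GAST to 0.904 for GHRL. The 95% intervals bound the size of an average loss or gain: the mean ratio of processed to live signal lay between 0.72 and 1.15 for INS, between 0.70 and 1.08 for GCG, between 0.73 and 1.10 for SST, and between 0.78 and 1.19 for GHRL. For IAPP and GAST the intervals were wider, 0.65 to 1.27 and 0.90 to 1.67. Without pair 2 the test called 494 genes higher and 194 lower, without pair 1 102 and 3, and without pair 3 6 and 6, but no hormone gene in any of these fits.

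The differences of INS and GCG were most negative in pair 2, at -0.47 and -0.37, and without that pair the mean of INS was 0.03. Bright genes in general were lower in the processed sample of that pair. With the tested genes split by mean signal into 10 groups of equal size, the median of the brightest group, to which INS, GCG and SST belong, was -0.30. Less that median, the differences of pair 2 were -0.17 for INS, -0.07 for GCG and 0.07 for SST. GHRL lies in the next group, whose median was -0.18, and stood 0.09 above it. In pairs 1 and 3 the medians of the brightest group were -0.07 and -0.03. The part of this dependence on brightness in the hormone differences was not tested.

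**Figure D2:**
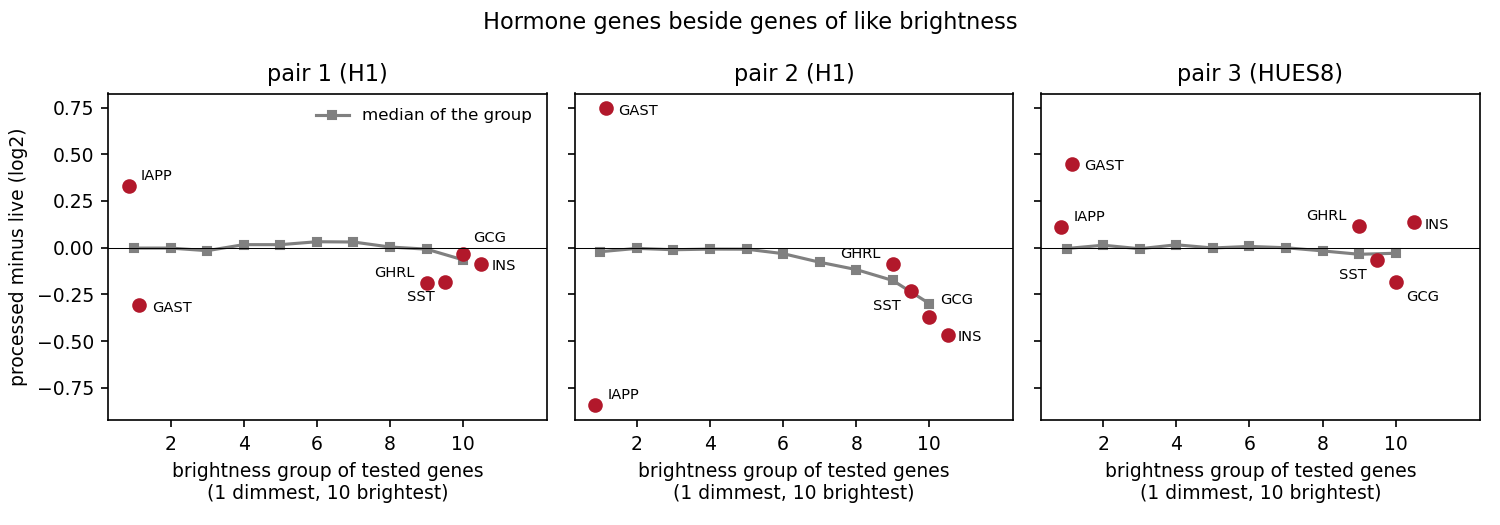
Log2 difference, processed minus live, in each of the 3 pairs, against the brightness group of the tested genes (1 dimmest, 10 brightest, by mean signal). Grey squares are the medians of the groups and red points the 6 hormone genes tested, shifted sideways where they would overlap. In pair 2 the median falls to -0.30 in the brightest group, while IAPP and GAST, in the dimmest, scatter on both sides of 0.

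Whether processing acted differently in the lines was asked on the within-pair differences. INS stood 0.41 higher on the log2 scale in the HUES8 pair than in the H1 pairs (95% interval -0.33 to 1.15), and GHRL 0.25 higher (-0.48 to 0.99). No hormone gene passed (limma, adjusted p = 1.00 for all 6 hormone genes tested, 0.261% of all genes called). This fit has 1 residual degree of freedom, and limma gave all 6 hormone genes the same SE (0.38). The intervals thus rest on a variance shared over genes and not on the spread of the single gene.

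On average over the pairs, the hormone genes differed less between processed and live samples than between the H1 cultures. This did not hold for every gene, pair and culture. IAPP differed by -0.84 in pair 2 and by -0.61 between the H1 cultures, and INS by -0.47 in pair 2 and by 0.18 between HUES8 and differentiation 1. The median size of the log2 difference over the 6 hormone genes tested was 0.15 for processed against live and 0.80 for differentiation 2 against 1. The former rests on means over 3 pairs, in which opposite signs cancel. Over all tested genes the same medians were 0.13 and 0.28. IAPP and GAST entered the test through the cultures in which they were high, so these medians describe and are not a test.

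Between the H1 cultures, INS and GCG moved in opposite directions. INS was 1.90-fold lower in differentiation 2 than in differentiation 1 (log2 difference -0.92, SE 0.19, adjusted p = 0.0158), GCG was 1.59-fold higher (0.67, SE 0.17, adjusted p = 0.0321) and SST 2.31-fold higher (1.21, SE 0.16, adjusted p = 0.00314). GHRL was at -0.50 and did not pass (adjusted p = 0.0731). Of the 4 strong hormones, 3 were called, where 14.1% of all tested genes were called, 5.66% higher and 8.43% lower. The arrays of these cultures did not overlap for any of the 4, nor for 59.4% of tested genes. This limma fit sets 2 single cultures against the spread between live and processed samples, so it speaks of these cultures and not of H1 in general.

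Without either array of differentiation 1, INS and GCG lost the call (adjusted p from 0.0679 to 0.335), with differences of -0.96 and 0.55 without the live array and -0.89 and 0.79 without the processed one. The call of SST held without each H1 array in turn (adjusted p up to 0.0162). GAST was below 40 on both arrays of differentiation 2 and was at least 2.10-fold lower there than in differentiation 1. It passed the filter only through the arrays of differentiation 1 and 1 HUES8 array, so this is given as a description. IAPP was at -0.61 (adjusted p = 0.146), and without the live array of differentiation 2 at -1.14 (adjusted p = 5.70e-04, against 0.0890 to 0.808 without another H1 array).

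In HUES8, INS stood close to its level in differentiation 1 and SST close to its level in differentiation 2. Against differentiation 1, INS in HUES8 differed by 0.18 (95% interval -0.24 to 0.61, adjusted p = 0.513), and by -0.02 without its processed array. Against differentiation 2, SST in HUES8 differed by 0.16 (-0.20 to 0.52, adjusted p = 0.505), and by -0.22 after quantile normalization. Neither passed, which does not show equal levels. INS was 2.15-fold higher in HUES8 than in differentiation 2 (adjusted p = 0.00390) and SST 2.57-fold higher than in differentiation 1 (adjusted p = 5.11e-04).

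GCG and GHRL were lower in HUES8 than in either H1 culture. GCG was 1.90-fold lower than in differentiation 1 (adjusted p = 0.00478) and 3.02-fold lower than in differentiation 2 (adjusted p = 3.65e-04), and the first of these calls was lost without the processed array of differentiation 1 (-0.81, adjusted p = 0.0744). GHRL was 2.10-fold lower than in differentiation 1 (adjusted p = 0.00227) and 1.49-fold lower than in differentiation 2 (adjusted p = 0.0363). The latter call was lost without the live HUES8 array (-0.44, adjusted p = 0.335) and without the processed one (-0.70, adjusted p = 0.0808). In these additive limma fits 23.7% of genes were called against differentiation 1 and 23.4% against differentiation 2, in either direction.

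Of the dim genes, GAST was higher in HUES8 (36.2 and 56.7) than in differentiation 2 (4.62 and 21.3), again as a description. No fold is given, since the live HUES8 array was also below 40. GAST was not called against differentiation 1 (-0.67, adjusted p = 0.0749). The latter passed without the processed array of differentiation 1 (adjusted p = 0.0121) or of HUES8 (0.0428). IAPP passed in neither comparison (adjusted p = 0.0751 and 0.770). It did pass against differentiation 1 without the live array of differentiation 1 (adjusted p = 0.0288) or the processed HUES8 array (0.0151), and against differentiation 2 without the processed array of that culture (0.0150), while without the live array of differentiation 2 or of HUES8 the latter difference turned to 0.41 and 0.064. Single arrays thus decide the calls of both genes.

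Against the average of the H1 cultures, with the culture as the unit, no hormone gene passed. The log2 difference of HUES8 was -1.26 for GCG (95% interval -2.05 to -0.47, adjusted p = 0.116), -0.82 for GHRL (-1.59 to -0.06, adjusted p = 0.422), 0.76 for SST (-0.16 to 1.68, adjusted p = 0.614) and 0.65 for INS (-0.20 to 1.49, adjusted p = 0.662). In this limma fit 1.73% of genes were called. The arrays of HUES8 lay outside all H1 arrays for each of the 4 strong hormones, INS and SST above and GCG and GHRL below. That was also the case for 37.3% of tested genes, 18.8% above and 18.5% below. The H1 cultures themselves were 0.92 apart for INS and 1.21 for SST, more than the distance of HUES8 from their mean.

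**Figure D3:**
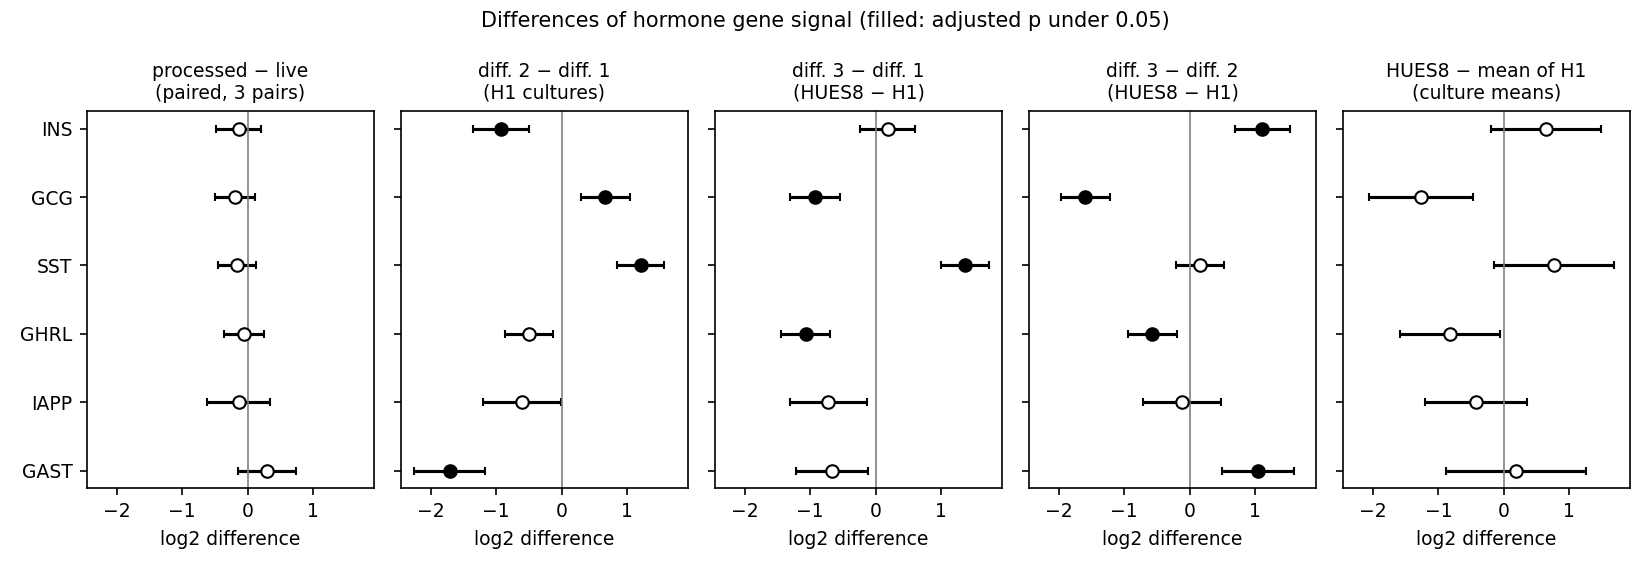
Log2 differences (horizontal axis, points) with 95% intervals (bars) for the 6 hormone genes tested in 5 limma comparisons, filled where the adjusted p was under 0.05. The intervals of processed minus live all cross 0, while INS, GCG, SST and GHRL each separate some of the cultures. Filled points of GAST are descriptions, since it passed the filter through the arrays where it was high. IAPP and GAST were below 40 on 3 arrays each, so their differences understate or cannot fix the fold.

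Ratios between hormones within a sample were compared because a factor that scales a whole array cancels in them for strong signals. A ratio of probe signals is not a ratio of transcripts, and only its change between samples is given. The GCG to INS ratio was 3.01-fold higher in differentiation 2 than in differentiation 1 and 6.51-fold lower in HUES8 than in differentiation 2. The live and processed samples of a culture differed in this log2 ratio by 0.05, 0.10 and -0.32 in pairs 1 to 3. The SST to INS ratio was 4.38-fold higher in differentiation 2 than in differentiation 1, and HUES8 lay between, 2.27-fold above differentiation 1 and 1.93-fold below differentiation 2. The GHRL to INS ratio was 1.34-fold higher in differentiation 2 than in differentiation 1 and in HUES8 it was 2.38-fold below differentiation 1. The GCG to SST ratio was 4.89-fold lower in HUES8 than in differentiation 1 and 3.37-fold lower than in differentiation 2.

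Of the 6 ratios among the 4 strong hormones, 5 separated all 3 cultures by more than the largest difference between live and processed samples of a culture. The exception was GCG to GHRL, for which HUES8 and differentiation 1 were 0.14 apart on the log2 scale and live and processed samples up to 0.30. These 6 ratios are built from 4 genes and are not independent. For the signals of single genes, GCG and GHRL separated all 3 cultures in this way and INS and SST did not. The share of all tested genes that do so is not given, so this does not set GCG and GHRL apart. Nor was the share of ratios between other genes computed, so the count of 5 ratios does not set the hormones apart. The ratio of IAPP to INS, hormones of the same adult cell, differed by 0.32 on the log2 scale between differentiations 1 and 2, less than the 0.42 between live and processed samples of differentiation 1, and no fold is given for HUES8, where IAPP was below 40 on both arrays. For 7 ratios, an exact two-sided sign-flip test of processed against live over 3 pairs cannot go below p = 0.25. It gave p from 0.25 to 1, and 1 for each after Benjamini-Hochberg adjustment. The value of 0.25 was that of PPY to INS, 0.27, 0.23 and 0.30 higher in the processed samples, with PPY below 40 on all arrays.

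**Figure D4:**
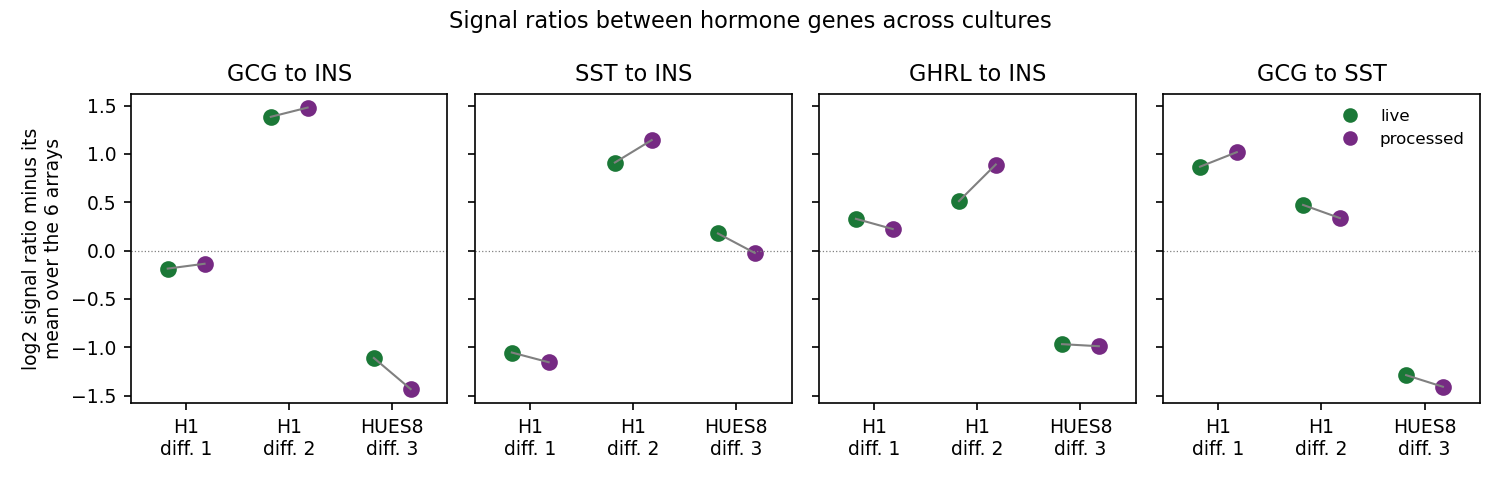
Log2 ratio of the signals of 2 hormone genes within each sample, less its mean over the 6 arrays, with a line joining the live (green) and processed (purple) sample of a culture. For GCG to INS, SST to INS and GCG to SST the lines within cultures are shorter than the steps between cultures, and GCG to INS is highest in differentiation 2 and lowest in HUES8.

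The genes around the hormones were read from lists of pathway members. Of 16 genes of prohormone processing and granules, 13 were tested. In differentiation 2 against 1, 4 were called lower and 0 higher (8.43% and 5.66% of all tested genes), with a median of -0.38 over the list and -0.04 over all genes: PCSK1N (-1.41), the inhibitor proSAAS, SCGN (-1.17), a calcium-binding protein of endocrine cells, SCG2 (-1.16) and CHGA (-0.93), both granins. In HUES8 against the H1 mean, 1 was called, PCSK1, the convertase that cuts proinsulin, which was 37.9 and 22.9 in differentiation 1, 51.9 and 41.7 in differentiation 2, and 168 and 170 in differentiation 3 (adjusted p = 0.0175). Its signal in HUES8 was at least 4.22-fold that in differentiation 1, where both arrays were below 40, and 1.73% of all tested genes were called in this fit. For processed against live, 0 of 13 were called.

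Of 19 endocrine transcription factors, 13 were tested, and 7 were called lower in differentiation 2 than in differentiation 1, where 8.43% of all tested genes were. Their differences ran from -1.26 for MNX1 to -0.61 for INSM1, with PDX1 at -0.85, NKX2-2 at -1.08 and PAX4 at -1.17. PDX1, which is required for the pancreas and activates INS, was 2542 and 2658, 1452 and 1415, and 477 and 666 in differentiations 1 to 3, and was called lower in HUES8 than in the H1 mean (-1.74, adjusted p = 0.0301). INS in HUES8 was the highest of the 6 arrays, so the order of PDX1 over the cultures was not that of INS. PAX6, an endocrine factor that acts on INS and GCG, was called higher in HUES8 (1.45, adjusted p = 0.0431). The markers of mature β cells MAFA, SLC30A8 and UCN3 were below 40 on all arrays, with highest values of 10.8, 13.2 and 14.2, and so was NKX6-1 (34.8).

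Of 15 receptor genes for these hormones, 14 were in the table and 6 were tested. CCKBR, the gastrin receptor gene, was 104 to 154 on the H1 arrays and 31.2 and 26.1 in HUES8, at least 3.29-fold lower. It was the 1 receptor gene called in HUES8 against the H1 mean, and it passed the filter through the H1 arrays alone, so its call is no support. SSTR2, a somatostatin receptor gene, was higher in the processed sample of every pair, 811 against 1087, 658 against 869 and 475 against 1131, and did not pass (0.67, adjusted p = 0.389). The share of all tested genes higher in every pair is not given, so this does not set SSTR2 apart. GHSR, the ghrelin receptor gene, stayed below 40 on all arrays. Of 19 other gut and neuroendocrine peptide and amine genes, 10 were below 40 throughout and 5 were tested. Of these 0 were called in HUES8 against the H1 mean and 1, DDC, was lower in differentiation 2 than in differentiation 1 (-0.97, adjusted p = 0.00793).

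Other cell types moved with the cultures. The summed intensity of 8 liver markers was 15385 to 23762 in the 4 H1 samples and 5003 to 6214 in the HUES8 samples. Of these markers, TTR is also an islet gene. In HUES8 against the H1 mean, 6 of the 8 were called lower, as were 1.24% of all tested genes. Among the 6, ALB, AFP, FGB and FGA were below 40 on both HUES8 arrays. They passed the filter through the H1 arrays alone, so their calls are no support. APOA1 (254 and 303 in HUES8) and APOA2 (51.8 and 51.6) were above 40 on all arrays. The sum of 8 acinar markers was 1074 and 1019 in differentiation 1, 363 and 306 in differentiation 2, and 1215 and 1604 in HUES8, live sample first. This order of the cultures was shared with INS. The sum of 7 mesenchymal markers was 5378 and 5289 in differentiation 1, 9103 and 7826 in differentiation 2, and 7684 and 7432 in HUES8, live sample first, and 4 of 6 tested were called higher in differentiation 2 than in differentiation 1, where 5.66% of all tested genes were. VIM, an intermediate filament gene that many cell types express, made up 62.6% to 90.8% of this sum. Without it the sum was 973 and 958 in differentiation 1, 3007 and 2930 in differentiation 2, and 706 and 798 in HUES8, so that the sum was lowest in HUES8. Single markers differed in direction. In HUES8 against differentiation 1, 2 of the 6 tested were called higher, DCN and VIM, and 3 lower, where 23.7% of all tested genes were called in either direction. In HUES8 against differentiation 2, 5 of the 6 were called lower, as were 11.6% of all tested genes. The sum of 8 neural markers was 2736 to 4923 in H1 and 5558 to 7622 in HUES8. Ductal and intestinal sums were lower in HUES8 (2759 to 2941 against 3653 to 4554, and 243 to 329 against 632 to 730), while those of pluripotent and proliferating cells overlapped. The pluripotent sum was carried by LIN28, and without it was 417 to 555 in H1 and 131 to 143 in HUES8. ZFP42 went from 214 to 368 on the H1 arrays to 19.0 and 26.1 in HUES8, at least 6.86-fold lower, and POU5F1 and NANOG were below 40 on all arrays. Their part in the hormone differences was not tested.

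The genes whose profile over the 6 arrays lay closest to a hormone were ranked by the root mean square of the difference between centred log2 values. For INS these were RPL13L (0.067) and LOC649946 (0.094), for GCG SPON1 (0.095) and CTHRC1 (0.095), for SST EPHB1 (0.101) and ZIC2 (0.109), and for GHRL ANXA11 (0.050) and SELENBP1 (0.057). CTHRC1 went from 154 and 133 in differentiation 1 to 276 and 212 in differentiation 2 and 76.2 and 50.1 in HUES8. For IAPP the closest were IER2 (0.066) and RHOB (0.067), which are immediate early genes, and for GAST AQP12A (0.199) and C4orf29 (0.213), ranked on values near the limit of 40. For PPY, below that limit throughout, they were LOC134997 (0.056) and CCDC77 (0.057). The likeness is a description over 6 arrays from 3 cultures, without a test.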

How the data were processed

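RNA of 3 stage 6 cultures, each split into a live and a processed sample, was hybridized to Illumina Human HT-12 BeadChips, 1 array per sample. The intensities used were deposited by the authors, who subtracted background and applied rank-invariant normalization between arrays in GenomeStudio. The table had 1 row per symbol, and 4.37% of its values were below 0. Another table, of 6 signals with 6 detection p-values, was left aside, since its columns carry running numbers that no label ties to a sample.

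Values below 0 were set to 0, the offset of 20 given in the methods was added, and log2 was taken, which understates changes of dim genes. The tests covered the 12653 genes (40.3%) that reached an intensity of 40 on 3 or more of 6 arrays. Limma 3.58.1 in R 4.3.3 was used, with Benjamini-Hochberg adjustment over all tested genes and a threshold of 0.05. Processed and live samples were compared with the culture as a block. The labels give the pairs, and deviations from group means correlated at 0.79, 0.62 and 0.81 within pairs. HUES8 was set against H1 on culture means (1 residual degree of freedom). Single cultures were compared in an additive fit of culture and state, whose p-values measure the spread between live and processed samples. Folds given as "at least" are bounds for genes below 40 on both arrays of a culture, with dim arrays set to 40 and no offset. Other differences are on the scale with the offset.

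The genes and lists were chosen with earlier results of these data known. Contrasts of differentiation 3 with 1 and 2, the comparison with genes of like brightness, the promoter letters, sums without the brightest marker, and list genes named for differentiation 2 against 1, as cell type markers or below the call threshold were chosen after values had been seen. Otherwise the named genes were the 7 hormones, the 2 highest and 2 lowest called genes of each list in HUES8 against H1, and for each hormone spanning at least 1 on the log2 scale the 2 closest profiles. Fits of processed against live, of HUES8 against H1, of differentiation 2 against 1 and of the processing effect were run on simulated data. For HUES8 against H1 and for differentiation 2 against 1 the simulation held no variation between cultures, so it does not speak to that variation. The fits of differentiation 3 against 1 and against 2 were not simulated. The number of arrays limits the precision. One result on a transcription factor is not reported here.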

Additional observations from a re-analysis of the deposited data

Results flagged for a closer look

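The processing difference of INS and of GHRL had opposite signs in the lines. INS was lower in the processed sample of both H1 pairs (-0.09 and -0.47) and higher in that of the HUES8 pair (0.14). GHRL was lower in both H1 pairs (-0.19 and -0.09) and higher in the HUES8 pair (0.11). HUES8 has 1 pair, and in the limma test of the difference between the lines neither gene passed (adjusted p = 1.00 for each).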

How the results depend on the processing

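Over 192 comparisons of hormone genes with alternatives of offset, filter, scaling, pairing or test, 184 kept their direction and side of the threshold, and 62 of 63 comparisons of ratios stayed within their spread. With no filter on dim genes, the calls of INS (-0.92, adjusted p = 0.0783) and GCG (0.67, adjusted p = 0.102) in differentiation 2 against 1 and of GHRL (-0.57) and GAST (1.04) in differentiation 3 against 2 were lost, while the numbers of genes called fell to 193 higher and 260 lower, 733 and 758, and, for differentiation 3 against 1, 601 and 823. HUES8 against H1 called 62 genes higher and 157 lower, 0 and 0 with no filter, 29 and 51 with a filter on all 6 arrays, 97 lower with an offset of 50, 35 higher after quantile normalization, 24 and 87 in live samples alone and 35 and 93 in processed samples alone. The processing effect of HUES8 against H1 gave 30 higher and 3 lower genes, 9 and 0 with an offset of 50, 0 and 0 with no filter, and 4 and 1 after median scaling of the arrays. There GCG went from 0.017 to -0.0092 under that scaling and -0.10 after quantile normalization, and SST from 0.14 to -0.20 after quantile normalization, which also took SST in differentiation 3 against 2 to -0.22. The PPY to INS ratio of processed against live went from 0.27 to 0.20 with an offset of 50. The causes were not tested. With a filter on all 6 arrays, IAPP and GAST are not tested.

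Processed against live without the pairing (no replicate block) called 0 genes, with 192 at an unadjusted p under 0.05, and left INS at -0.14 and all 6 hormone genes uncalled, as did the methods' t-test (320 genes at an unadjusted p under 0.05, 0 after adjustment). Leaving out 1 pair at a time, the calls ranged from 6 to 494 genes higher and 3 to 194 lower, INS from -0.28 to 0.025, GHRL from -0.14 to 0.014 and IAPP from -0.37 to 0.22. Leaving out 1 array at a time leaves a culture with 1 sample, assumed to vary like the others. Genes called ranged from 217 to 1511 higher and 308 to 2121 lower for differentiation 2 against 1, from 453 to 804 and 756 to 1245 for 3 against 1, and from 886 to 2314 and 809 to 2189 for 3 against 2. Differentiation 2 against 1 ranged from -1.17 to -0.68 for INS, from 0.54 to 0.80 for GCG and from -1.14 to -0.073 for IAPP. Differentiation 3 against 1 ranged from -0.023 to 0.39 for INS, from -1.05 to -0.81 for GCG, from -1.07 to -0.37 for IAPP and from -1.12 to -0.21 for GAST. Differentiation 3 against 2 ranged from -0.70 to -0.44 for GHRL and from -0.65 to 0.41 for IAPP. IAPP, GAST and PPY lie near background, which limits what their values show.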
